A study of Mus musculus with 6 samples.

Results

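The guanylate-binding proteins (Gbp) and the immunity-related GTPases (Irg) are 2 families of large GTPases that mouse cells make in response to interferons. The 10 genes described here are Gbp2, Gbp3, Gbp4, Gbp7, Gbp8 and Gbp9 and the Irg genes Irgm1, Irgm2, Igtp and Iigp1, taken by gene name. They are 10 of the 43432 genes in the deposited table, and all 10 were among the 9923 genes with a mean of at least 10 normalized counts that were tested.

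The RNA came from splenic CD11b+ cells that had been sorted from 6 mice on day 8 after cell transfer, with 1 library per mouse. CD11b, encoded by Itgam, is an integrin chain carried by neutrophils, monocytes and other myeloid cells. The 3 WT iGB6 recipients had received wild-type B cells that were grown in a culture of induced germinal-centre B cells (iGB) and infected with a retrovirus carrying Il6 and a green fluorescent protein. The 3 IgHMOG iGBGFP recipients had received IgHMOG B cells, whose antigen receptor heavy chain recognises myelin oligodendrocyte glycoprotein (MOG), infected with the empty vector. The transferred B cells of both groups were loaded with MOG protein and given together with 2D2 CD4+ T cells, whose T cell receptor also recognises MOG. All recipients were C57BL/6J mice with a Rag1 KO genotype, which make no T or B cells of their own. In each group replicate 1 was female and replicates 2 and 3 were male. The B cells of the groups differ both in their receptor and in the vector, so an effect of Il6 and an effect of the receptor cannot be told apart.

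Most cells keep both families low at rest and transcribe them after interferon signals reach 2 kinds of promoter element, the interferon gamma-activated site (GAS) and the interferon-stimulated response element (ISRE), which IRF proteins bind. Gbp proteins assemble on bacteria and on the vacuoles of intracellular parasites, where they help to break the membrane and to engage inflammasomes. The Irg proteins fall into effectors such as Iigp1, which load onto parasite vacuoles, and the regulators Irgm1, Irgm2 and Igtp, which sit on the cell's own membranes and hold the effectors inactive there. Which vacuoles are targeted depends on the ATG8 conjugation system of autophagy.

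The sequences before the transcription starts are shown because the genes with a listed start differed in which letters of these interferon response elements they held. RefSeq start sites on GRCm38.p6 were found for 6 of the 10 genes, and the 120 bases before each start are given 5′ to 3′ on the gene's strand. Capitals mark the letters of an ISRE core (GAAA, any 2 bases, GAAA) or of a GAS element (TTCNNNGAA), each searched on both strands, and adjoining capitals can be overlapping matches.
Gbp7 (chr3:142530216-142530335, plus strand): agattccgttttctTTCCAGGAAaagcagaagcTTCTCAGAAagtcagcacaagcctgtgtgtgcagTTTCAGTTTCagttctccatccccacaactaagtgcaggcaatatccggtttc
Igtp (chr11:58199436-58199555, plus strand): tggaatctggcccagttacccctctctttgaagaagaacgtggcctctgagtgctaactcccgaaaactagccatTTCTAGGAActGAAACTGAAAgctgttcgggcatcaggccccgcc
Irgm2 (chr11:58214857-58214976, plus strand): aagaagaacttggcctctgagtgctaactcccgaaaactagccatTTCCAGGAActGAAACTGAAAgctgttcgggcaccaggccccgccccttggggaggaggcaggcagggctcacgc
Gbp2 (chr3:142620543-142620662, plus strand): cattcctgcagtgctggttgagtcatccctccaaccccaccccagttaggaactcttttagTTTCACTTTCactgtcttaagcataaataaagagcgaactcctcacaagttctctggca
Gbp3 (chr3:142559924-142560043, plus strand): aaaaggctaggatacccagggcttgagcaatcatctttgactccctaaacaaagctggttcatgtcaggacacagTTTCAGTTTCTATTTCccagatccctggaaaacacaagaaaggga
Irgm1 (chr11:48871421-48871540, minus strand): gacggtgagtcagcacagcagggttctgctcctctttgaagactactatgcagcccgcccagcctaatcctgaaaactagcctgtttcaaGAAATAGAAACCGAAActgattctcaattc
The ISRE core was present in all 6 windows, against 1.22% of 32844 windows of the same length before mouse RefSeq starts. The GAS letters were present in 3 of the 6, those of Gbp7, Igtp and Irgm2, against 3.15% of all windows. Both motifs stood together in those 3 windows and in 0.0609% of all windows. The Igtp and Irgm2 promoters, which lie near each other on chromosome 11, share an identical run of 55 bases upstream of the windows shown. Gbp3 has a further RefSeq start whose window held neither motif. These matches describe letters in the windows and not binding.

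The libraries held 5955142 to 7564254 reads in WT iGB6 and 5196339 to 6611212 reads in IgHMOG iGBGFP, with 14816 to 17013 genes detected. A normalized count is a read count divided by a size factor of its library, and 3 reads correspond to 2.37 to 3.56 normalized counts. Itgam had 9561 to 12352 normalized counts in WT iGB6 and 6451 to 10606 in IgHMOG iGBGFP libraries. IgHMOG iGBGFP replicate 3 stood apart, with the highest sums of dendritic cell and non-classical monocyte markers and the lowest sum of neutrophil markers, given below. The labels give 1 mouse per library, so the spread between replicates is a spread between mice. It would include any difference between experiments, which the labels do not describe.

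None of the 10 GTPases passed the test between the groups, and 9 of the 10 had log2 fold changes below 0, beside 48.4% of all genes. The test was limma on log2(normalized count + 1) with sex as a term, and a gene was called at a Benjamini-Hochberg adjusted p under 0.05 over all genes tested. In that test 2.75% of all genes were called higher and 3.37% lower in WT iGB6. With no adjustment, Gbp2, Gbp3, Gbp9 and Irgm1 had p under 0.05 in the lower direction, 4 of 10 against 12.3% of all genes. Other tools called some of them. edgeR's quasi-likelihood test on the recovered reads called Gbp9 lower, 1 of 10 against 3.55% of all genes. DESeq2 on the same reads called Gbp2 and Gbp9, 2 of 10 against 5.33%. Without the filter on low counts limma called those 4, against 2.74% of genes. The authors' deposited table has adjusted p under 0.05 for Gbp2, Gbp3 and Gbp9, 3 of 10 against 4.29% of its genes. In bulk samples such as these, fewer cells of a type and less RNA per cell cannot be told apart. The median log2 fold change of the 10 (WT iGB6 over IgHMOG iGBGFP here and throughout) was -0.30, beside 0.02 for all genes tested. Gbp7 was the exception above 0, and it too lay below 0 when libraries were scaled to equal totals (log2 fold change -0.11), a scaling that moved the median of all genes by -0.21.

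**Figure D1:**
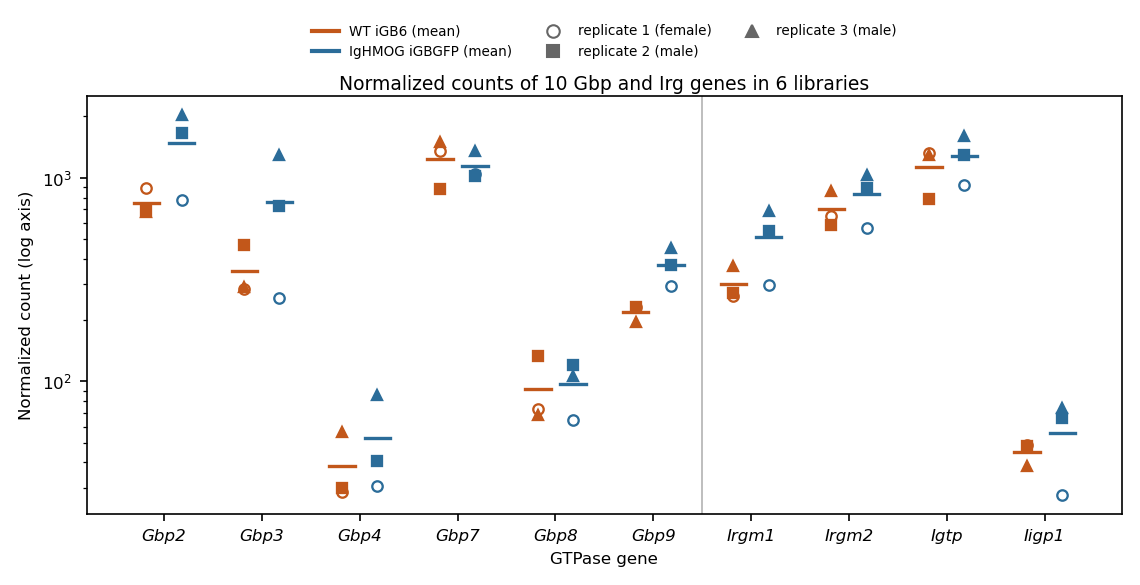
Normalized counts (log axis) of the 6 Gbp genes and, right of the line, the 4 Irg genes; each point is 1 library, bars are group means, and open circles are females. For Gbp9 all 3 WT iGB6 points lie below all 3 IgHMOG iGBGFP points, while the other 9 genes overlap between the groups.

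Gbp7, Gbp3 and Gbp2 lie in this order in a cluster on chromosome 3, with Gbp2b between Gbp3 and Gbp2. Gbp2 (ENSMUSG00000028270, GRCm38 chr3:142620602-142638008, GENCODE M21) encodes a protein that is anchored in membranes by a lipid tail and coats bacteria and parasite vacuoles. It had 887, 685 and 681 normalized counts in WT iGB6 replicates 1, 2 and 3, against 775, 1659 and 2025 in IgHMOG iGBGFP replicates 1, 2 and 3. The WT iGB6 libraries were near each other, while in IgHMOG iGBGFP the male libraries were high and the female library lay within the WT iGB6 range. The means were 751 ± 118 in WT iGB6 and 1487 ± 643 in IgHMOG iGBGFP (SD, n = 3 each). The log2 fold change was -0.88 (SE 0.29, 95% interval -1.53 to -0.24, limma adjusted p = 0.0957). DESeq2 gave Gbp2 an adjusted p of 0.0258, and the authors' deposited table gives 0.0261. Leaving out the female of either group carried limma past the threshold, with log2 fold changes of -1.42. These fits are not separate results: the sex term takes up the remaining female, so both compare the males alone. The limma adjusted p was 0.0340 without WT iGB6 replicate 1 and 0.0331 without IgHMOG iGBGFP replicate 1. Leaving out a male did not, with limma adjusted p of 0.0937 and 0.173 without WT iGB6 replicates 2 and 3. It was 0.330 and 0.295 without IgHMOG iGBGFP replicates 2 and 3, and 0.182 with no sex term.

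Gbp3 (ENSMUSG00000028268, chr3:142560026-142573209), whose mouse protein is also recruited to parasite vacuoles, had 286, 469 and 290 normalized counts in WT iGB6 replicates 1, 2 and 3. In IgHMOG iGBGFP replicates 1, 2 and 3 it had 256, 724 and 1296. Its highest and its lowest library were both IgHMOG iGBGFP, so the groups overlapped. The means were 348 ± 104 in WT iGB6 and 759 ± 521 in IgHMOG iGBGFP, and the log2 fold change was -0.87 (SE 0.34, limma adjusted p = 0.150). The authors' deposited table gives Gbp3 an adjusted p of 0.0481.

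Gbp7 (ENSMUSG00000040253, chr3:142530342-142550149), a vacuole-binding Gbp linked in mouse macrophages to assembly of the NADPH oxidase, had 1353, 877 and 1495 normalized counts in WT iGB6 replicates 1, 2 and 3. It had 1047, 1021 and 1353 in IgHMOG iGBGFP replicates 1, 2 and 3. The ranges overlapped fully, unlike the Gbp2 and Gbp3 counts of the male libraries. Its log2 fold change was 0.10 with a 95% interval of -0.41 to 0.60 (limma adjusted p = 0.830). Its exons share 637 bases with a processed pseudogene, Gm43802, which is not among the genes of the deposited table.

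Gbp4, Gbp8 and Gbp9 lie on chromosome 5 and their annotated exons overlap by 60 to 61 bases. Gbp9 (ENSMUSG00000029298, chr5:105077630-105139539), another vacuole-binding Gbp, was the gene whose groups did not overlap. It had 231, 232 and 195 normalized counts in WT iGB6 replicates 1, 2 and 3, against 296, 372 and 451 in IgHMOG iGBGFP replicates 1, 2 and 3. Of all genes tested, 11.4% had every WT iGB6 library below every IgHMOG iGBGFP library, so 1 of 10 is close to the background. The means were 219 ± 21.4 in WT iGB6 and 373 ± 77.6 in IgHMOG iGBGFP, a level 41.2% lower in WT iGB6. The log2 fold change was -0.75 (SE 0.20, 95% interval -1.19 to -0.30), with a limma adjusted p of 0.0561. Its adjusted p was 0.0482 in edgeR, 0.0263 in DESeq2, and the authors' deposited table gives 0.0329. It did not pass limma in any fit that left out 1 library, with adjusted p from 0.0528 to 0.212. With no sex term the limma adjusted p was 0.125. An exact two-sided permutation test of Gbp9 over the 6 libraries gave p = 0.1, the smallest that 3 against 3 allows.

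Gbp4 (ENSMUSG00000079363, chr5:105115767-105139586), whose mouse protein has been described to bind Irf7, was the scarcest of the 6 Gbp genes, per length as well. It had 28.5 to 56.2 normalized counts in WT iGB6 and 30.7 to 86.0 in IgHMOG iGBGFP. Gbp8 (ENSMUSG00000034438, chr5:105014150-105139540) had 68.6 to 133 in WT iGB6 and 64.4 to 120 in IgHMOG iGBGFP. Neither gene differed beyond the spread of its replicates, with log2 fold changes of -0.38 (SE 0.36, limma adjusted p = 0.568) for Gbp4 and -0.09 (SE 0.28, limma adjusted p = 0.871) for Gbp8. The 95% intervals reached from -1.19 to 0.43 for Gbp4 and from -0.71 to 0.53 for Gbp8, so neither 1.5-fold lower nor equal levels lie outside them.

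Of the Irg regulators, Irgm1 (ENSMUSG00000046879, chr11:48861968-48871683), which protects haematopoietic cells and lysosomal membranes from the effector Irg proteins, had the log2 fold change farthest from 0, and it did not pass the test. It had 262, 272 and 368 normalized counts in WT iGB6 replicates 1, 2 and 3 and 297, 548 and 687 in IgHMOG iGBGFP replicates 1, 2 and 3. The 2 male IgHMOG iGBGFP libraries stood above the others, and the female lay within the WT iGB6 range. The means were 301 ± 58.3 in WT iGB6 and 510 ± 198 in IgHMOG iGBGFP (SD, n = 3 each), and the log2 fold change was -0.69 (SE 0.22, limma adjusted p = 0.0901).

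Igtp (ENSMUSG00000078853, chr11:58199556-58207591) and Irgm2 (ENSMUSG00000069874, chr11:58199618-58222782), the other two regulators, are neighbours whose exons share 162 bases on the same strand. Igtp had 1317, 787 and 1296 normalized counts in WT iGB6 replicates 1, 2 and 3, and 920, 1292 and 1605 in IgHMOG iGBGFP replicates 1, 2 and 3. Irgm2 had 652, 586 and 857 in WT iGB6 and 570, 893 and 1032 in IgHMOG iGBGFP. The groups overlapped for both genes, and the female IgHMOG iGBGFP library was below the female WT iGB6 library for both. The log2 fold changes were -0.17 for Igtp (SE 0.26, limma adjusted p = 0.735) and -0.23 for Irgm2 (SE 0.21, limma adjusted p = 0.548). Iigp1 (ENSMUSG00000054072, chr18:60376027-60392634), the effector among the 4 Irg genes, was scarce, with 38.2 to 48.6 normalized counts in WT iGB6 and 27.6 to 74.0 in IgHMOG iGBGFP. Its log2 fold change was -0.20 (SE 0.34, limma adjusted p = 0.760).

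**Figure D2:**
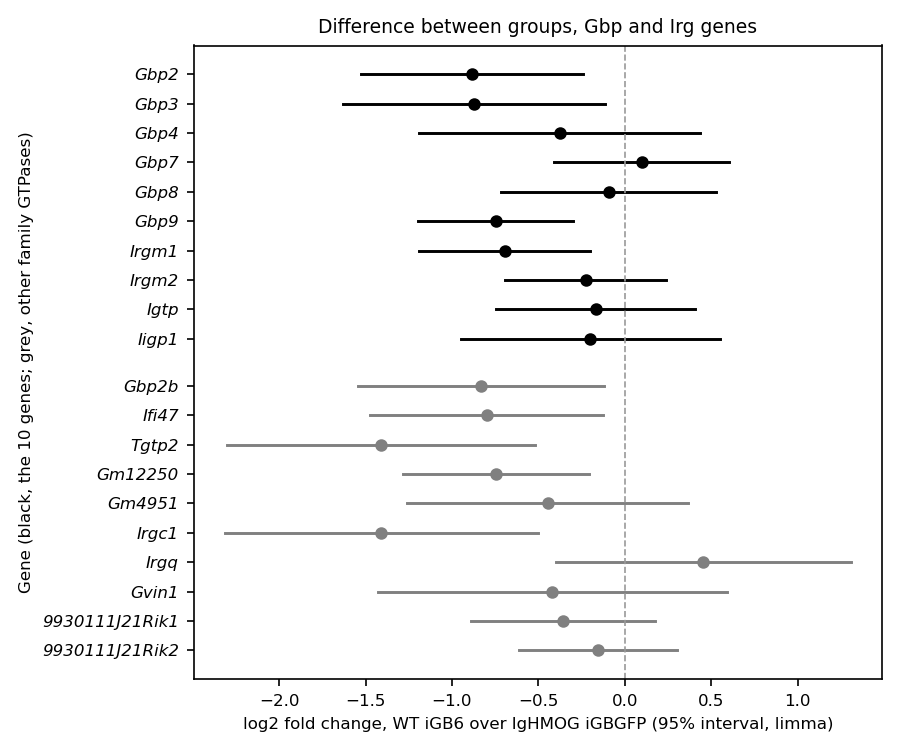
Log2 fold change (WT iGB6 over IgHMOG iGBGFP) with its 95% interval from limma for the 10 genes (black) and for the other family GTPases tested (grey). The intervals of Gbp2, Gbp3, Gbp9 and Irgm1 lie below 0 before adjustment for multiple tests, and those of Gbp4, Gbp7, Gbp8, Irgm2, Igtp and Iigp1 span 0.

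The genes whose windows held an ISRE core without the GAS letters, Gbp2, Gbp3 and Irgm1, had log2 fold changes of -0.88, -0.87 and -0.69. Those with both, Gbp7, Igtp and Irgm2, had 0.10, -0.17 and -0.23. This division was seen after the values were known and carries no test. It did not extend to other family GTPases that held both motifs: Tgtp2 and Gm12250 had log2 fold changes of -1.41 and -0.74. Those that held neither motif varied: Gbp2b had -0.83, Ifi47 -0.80, 9930111J21Rik1 -0.36, 9930111J21Rik2 -0.15 and Irgq 0.46.

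IgHMOG iGBGFP replicate 3 was the highest library for 8 of the 10, while it was the highest for 18.5% of all genes tested. The exceptions were Gbp7, highest in WT iGB6 replicate 3, and Gbp8, highest in WT iGB6 replicate 2. The median over the 10 genes of the log2 value minus the gene's own mean was -0.24, -0.38 and -0.18 in WT iGB6 replicates 1, 2 and 3. It was -0.39, 0.40 and 0.64 in IgHMOG iGBGFP replicates 1, 2 and 3. The female IgHMOG iGBGFP library was thus as low as the WT iGB6 libraries, and the males of that group were the high ones. Without IgHMOG iGBGFP replicate 3 the median log2 fold change of the 10 genes was -0.11 with 0 called by limma, and without WT iGB6 replicate 1 or IgHMOG iGBGFP replicate 1 it was -0.60.

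**Figure D3:**
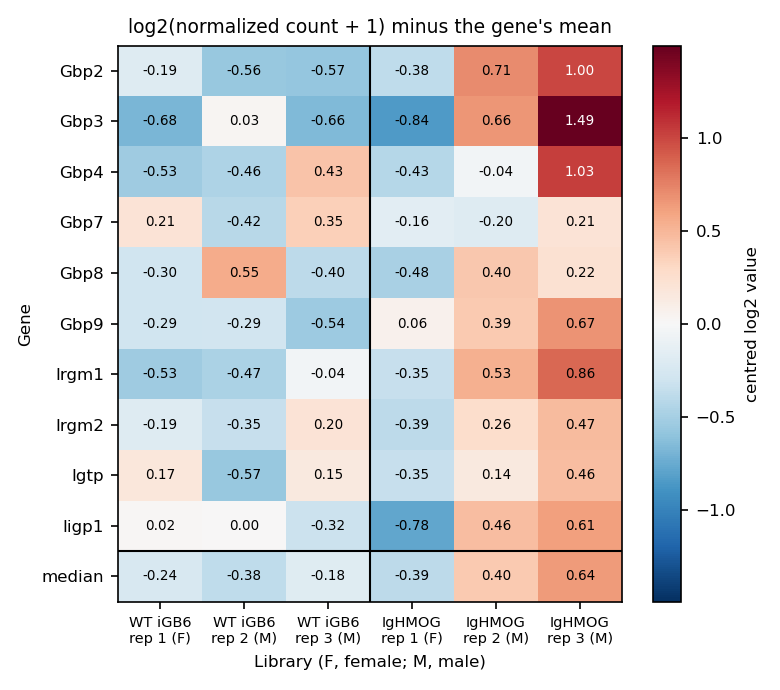
Heat map of log2(normalized count + 1) minus the gene's mean over the 6 libraries, with genes in rows, libraries in columns and the median of the 10 genes in the last row. IgHMOG iGBGFP replicates 2 and 3 hold the highest medians, 0.40 and 0.64, while the female IgHMOG iGBGFP library has -0.39.

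Within each sex the group difference was as follows. Between the 2 males of each group all 10 genes were lower in WT iGB6, with a median log2 difference of -0.60 and a range from -1.42 for Gbp2 to -0.04 for Gbp7. In 6 of the 10 both WT iGB6 males lay below both IgHMOG iGBGFP males, against 24.6% of all genes tested. With males alone limma called 1 of the 10 lower, Gbp2 (adjusted p = 0.0331), against 0.726% of all genes. Between the single females 7 of the 10 were higher in WT iGB6, with a median of 0.19 and a range from -0.35 for Gbp9 to 0.79 for Iigp1.

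The difference between the sexes was tested as an interaction of group and sex in limma. The interaction was above 0 for all 10 genes, as for 51.9% of all genes, and 0 of 9923 genes passed it after adjustment, with 1.49% of all genes at an unadjusted p under 0.05. The values farthest from 0 among the 10 were those of Gbp2 (1.62 on the log2 scale, SE 0.42), Gbp3 (1.55, SE 0.58) and Iigp1 (1.49, SE 0.62), and the adjusted p was 1.00 for each. The female estimate rests on 1 mouse per group and sex coincides with replicate number 1, so sex and that pair of mice cannot be told apart.

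**Figure D4:**
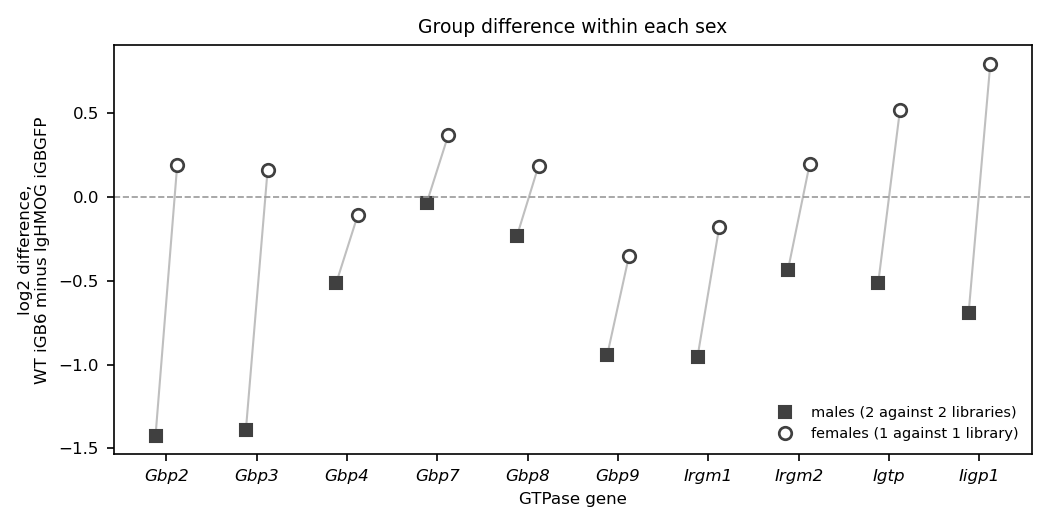
Log2 difference of WT iGB6 minus IgHMOG iGBGFP for each gene in males (filled squares, 2 against 2 libraries) and females (open circles, 1 against 1). The male value lies below 0 and below the female value for all 10 genes; the female values of 7 genes lie above 0.

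Summed, the 10 genes made up 0.0690 to 0.0743% of the normalized counts of a WT iGB6 library and 0.0645 to 0.168% of an IgHMOG iGBGFP library. The sum was 5139, 4120 and 5344 normalized counts in WT iGB6 replicates 1, 2 and 3, against 4283, 6736 and 8715 in IgHMOG iGBGFP replicates 1, 2 and 3. The ranges overlapped through the female of the IgHMOG iGBGFP group. The Gbp genes summed to 2690 ± 231 in WT iGB6 and 3908 ± 1424 in IgHMOG iGBGFP, and the Irg genes to 2178 ± 441 in WT iGB6 and 2670 ± 800 in IgHMOG iGBGFP (SD, n = 3 each).

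The genes did not keep the same share of this sum. Gbp2 held 17.3, 16.6 and 12.7% of it in WT iGB6 replicates 1, 2 and 3, and 18.1, 24.6 and 23.2% in IgHMOG iGBGFP replicates 1, 2 and 3, with no overlap. Irgm1 also had no overlap by a narrow margin, with 5.10, 6.61 and 6.88% in WT iGB6 and 6.93, 8.13 and 7.88% in IgHMOG iGBGFP. Gbp7 held 26.3, 21.3 and 28.0% in WT iGB6 and 24.5, 15.2 and 15.5% in IgHMOG iGBGFP, where the ranges overlapped. Gbp7 and Igtp were the leading genes in WT iGB6, with mean shares of 25.2 ± 3.5% and 23.0 ± 3.4%, and Gbp2 led in IgHMOG iGBGFP with 22.0 ± 3.4%. No test was made of these shares.

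Per length, in normalized counts per kilobase of exon over all 6 libraries, Igtp was the most abundant transcript with a mean of 595, followed by Gbp2 with 445. Gbp7 (212), Irgm2 (207) and Gbp3 (170) came next, then Irgm1 (69.8), Gbp9 (57.2) and Gbp8 (27.4), and Iigp1 (8.67) and Gbp4 (6.05) were last. Only 2 neighbours in this order had ranges that did not overlap, Gbp2 above Gbp7 and Gbp8 above Iigp1. The other neighbours overlapped in range. Among these, Gbp3 was above Irgm1 and Gbp9 above Gbp8 in 6 of 6 libraries, while Gbp7 was above Irgm2 in 3 of 6. The order differed between the groups: Gbp2 was above Igtp in both IgHMOG iGBGFP males, and Gbp3 averaged 107 per kilobase in WT iGB6 and 232 in IgHMOG iGBGFP, where it stood above Irgm2 (225) and Gbp7 (203). The regulators Igtp and Irgm2 were above the effector Iigp1 in every library, but other effectors were abundant, with means over all libraries of 337 per kilobase for Ifi47 and 194 for Gm12250.

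Of 17 further GTPases of both families that were listed, 14 were measured and 10 tested; Gbp5, Gbp6 and Gbp10 were not analysed here. limma called none of the 10, with 5 at an unadjusted p under 0.05, all lower, against 12.3% of all genes. edgeR called 0, and DESeq2 called 1 lower, Tgtp2, against 5.33% of all genes. Their median log2 fold change was -0.60. Tgtp2, an effector Irg, had 86.6, 52.1 and 119 normalized counts in WT iGB6 replicates 1, 2 and 3, against 114, 221 and 412 in IgHMOG iGBGFP replicates 1, 2 and 3. Its log2 fold change was -1.41 (SE 0.40, limma adjusted p = 0.0638), and the authors' deposited table gives an adjusted p of 0.00559. It has a near-identical neighbour, Tgtp1, so its counts are uncertain.

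Ifi47, an Irg effector, averaged 588 ± 140 normalized counts in WT iGB6 and 1077 ± 473 in IgHMOG iGBGFP (log2 fold change -0.80, limma adjusted p = 0.140). The effector Gm12250 had a log2 fold change of -0.74 (limma adjusted p = 0.0954) and Gbp2b, a close relative of Gbp2, had -0.83 (limma adjusted p = 0.145). As with Gbp2, each of the 3 was highest in IgHMOG iGBGFP replicate 3 and overlapped between the groups. Irgc1, a family member known from testis, was near the detection limit, with 7.56 ± 3.83 normalized counts in WT iGB6 and 20.7 ± 5.03 in IgHMOG iGBGFP (log2 fold change -1.41, limma adjusted p = 0.0675). The remaining 5 tested had log2 fold changes of 0.46 for Irgq, -0.45 for Gm4951, -0.42 for Gvin1, -0.36 for 9930111J21Rik1 and -0.15 for 9930111J21Rik2. Gbp11, Gm4841, Tgtp1 and F830016B08Rik averaged under 10 normalized counts and were not tested.

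The Mx proteins are dynamin-like GTPases that respond to type I and type III interferons. Mx1 fell: it averaged 45.1 ± 7.03 normalized counts in WT iGB6 and 105 ± 32.0 in IgHMOG iGBGFP (log2 fold change -1.17, SE 0.26, limma adjusted p = 0.0339), and the groups did not overlap. Mx2 had 14.5 ± 1.00 in WT iGB6 and 32.5 ± 9.24 in IgHMOG iGBGFP (log2 fold change -1.08, limma adjusted p = 0.0900). The call of Mx1 was lost without either replicate 1 or without IgHMOG iGBGFP replicate 2 or 3, where its adjusted p ran from 0.107 to 0.139.

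Of the interferon ligands and cytokines that induce or accompany them, 5 of 9 were tested and limma, edgeR and DESeq2 each called 0, with 1 at an unadjusted limma p under 0.05. The median log2 fold change of the 5 was 0.23. Ifng, the ligand itself, was below the filter with 0.789 to 21.4 normalized counts in WT iGB6 and 1.72 to 9.00 in IgHMOG iGBGFP, and Ifnb1 had 0 reads in every library. Ebi3 (log2 fold change 0.32) and Il15 (-0.59, limma adjusted p = 0.0858) were the most abundant of the list.

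In the receptor and signalling chain of interferon gamma, 3 of 11 genes fell and none rose, against 3.37% of all genes called lower, and all 11 log2 fold changes were below 0 with a median of -0.63. Irf8, a transcription factor of monocytes and dendritic cells that acts with Irf1 on interferon gamma targets, averaged 177 ± 13.7 normalized counts in WT iGB6 and 417 ± 152 in IgHMOG iGBGFP (log2 fold change -1.17, SE 0.24, limma adjusted p = 0.0267). Irf1, a transcription factor induced by interferon gamma, averaged 816 ± 162 in WT iGB6 and 1544 ± 590 in IgHMOG iGBGFP (-0.85, SE 0.19, limma adjusted p = 0.0358), with overlapping groups. Ifngr2, the signalling chain of the receptor, averaged 107 ± 5.98 in WT iGB6 and 206 ± 54.4 in IgHMOG iGBGFP (-0.91, SE 0.22, limma adjusted p = 0.0409).

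The other receptor chain Ifngr1 and the kinase Jak1 did not pass, with log2 fold changes of -0.13 and -0.14. The kinase Jak2 had -0.63 (limma adjusted p = 0.0968). edgeR and DESeq2 also called 3 genes each, Irf8, Irf1 and Ifngr2, against 3.55% and 5.33% of all genes called lower. limma called 1 of the list without either replicate 1, 2 without WT iGB6 replicate 3, and 0 without IgHMOG iGBGFP replicate 2 or replicate 3.

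The receptor of type I interferon and the ISGF3 complex that it activates held 6 tested genes. limma called 0, with 1 lower at an unadjusted p under 0.05, against 12.3% of all genes, and edgeR and DESeq2 called 0. The median was -0.39, with log2 fold changes of -0.60 for Irf7 and -0.05 for Irf9, the 2 most abundant of the list. Among 7 tested inhibitors of interferon signalling 1 fell, against 3.37% of all genes called lower: Socs3, which blocks cytokine receptors including that of Il6. It averaged 88.2 ± 42.7 normalized counts in WT iGB6 and 241 ± 109 in IgHMOG iGBGFP (log2 fold change -1.44, SE 0.32, limma adjusted p = 0.0339). The adjusted p of Socs3 was between 0.0761 and 0.212 without either replicate 1 or without IgHMOG iGBGFP replicate 2 or 3. Of the others none passed, and Socs1, the main inhibitor of interferon gamma signalling, had under 1 normalized count in every library, below the level of 3 reads.

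Other targets of interferon gamma, like the GTPases, gave no limma call. Of 19 tested, limma and edgeR called 0. At an unadjusted limma p under 0.05, 7 were lower, against 12.3% of all genes, and 1 was higher. DESeq2 called 2 lower, Cxcl10 and Cd274, against 5.33% of all genes. Their median log2 fold change was -0.30, the value of the 10 GTPases to the same rounding. The most abundant, Slfn1 and the immunoproteasome subunit Psmb8, had -0.06 and -0.30.

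Of 25 genes of the type I interferon response, 6 fell and none rose, against 3.37% of all genes called lower, with a median log2 fold change of -0.39. edgeR called 6 lower, against 3.55% of all genes, and DESeq2 7, against 5.33%. Ifi27l2a averaged 839 ± 106 normalized counts in WT iGB6 and 1929 ± 398 in IgHMOG iGBGFP (-1.19, SE 0.19, limma adjusted p = 0.0124). Ifit3, which binds other IFIT proteins in antiviral complexes, averaged 469 ± 294 in WT iGB6 and 1071 ± 119 in IgHMOG iGBGFP (-1.35, SE 0.24, limma adjusted p = 0.0167). Ifi204, a nuclear DNA sensor, had a log2 fold change of -0.94 (limma adjusted p = 0.0278) and Ifit3b -1.06 (limma adjusted p = 0.0339), with overlapping groups for Ifit3b alone of these 4. limma called 2 of the 25 without either replicate 1, and 0 without IgHMOG iGBGFP replicate 2 or 3.

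**Figure D5:**
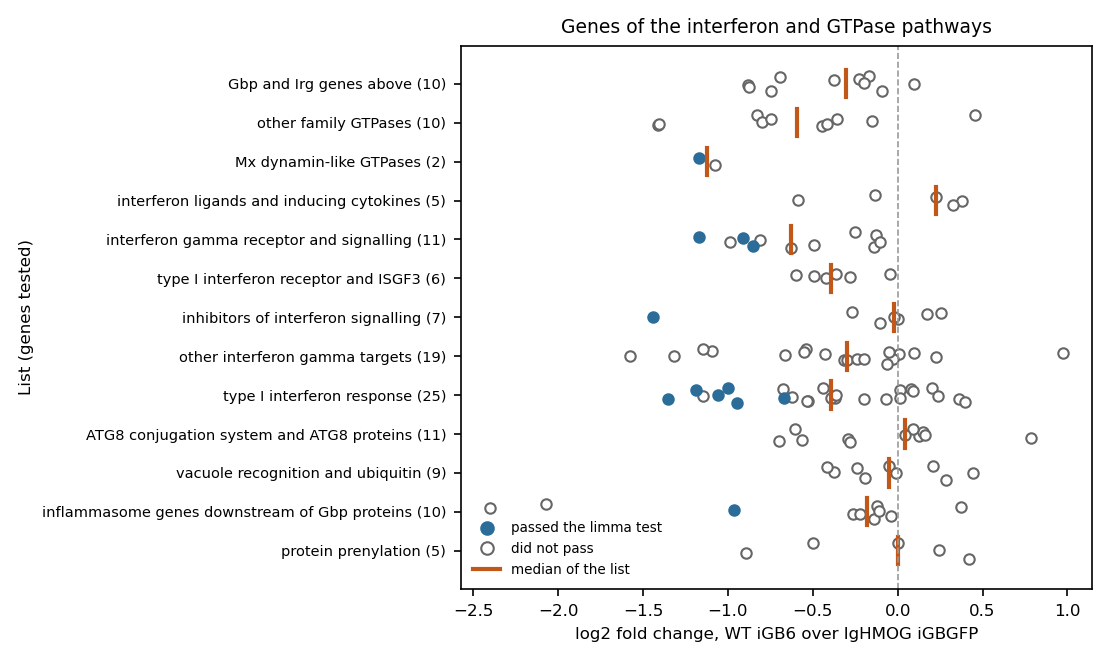
Log2 fold change (WT iGB6 over IgHMOG iGBGFP) of each tested gene (points) of the 10 GTPases, their relatives and 11 lists of interferon and GTPase pathway genes; bars are list medians and filled points passed limma. Filled points lie below 0 in 5 lists, those of Mx genes, interferon gamma signalling, inhibitors, the type I response and inflammasomes, and the 10 GTPases hold none.

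Genes that act with the GTPases were tested as 4 more lists. The ATG8 conjugation system and the ATG8 proteins held 11 tested genes, of which limma and edgeR called 0, with 1 lower and 1 higher at an unadjusted limma p under 0.05. DESeq2 called 1 lower, Atg3, against 5.33% of all genes. The median was 0.04, and the most abundant ATG8 genes, Map1lc3b and Gabarap, had -0.29 and -0.28. Genes of vacuole recognition and ubiquitin held 9 tested genes with 0 called by limma, edgeR or DESeq2 and 0 at an unadjusted limma p under 0.05. Their median was -0.05, with -0.05 for the galectin Lgals3 and 0.21 for the ubiquitin adaptor Tax1bp1. Protein prenylation, which attaches the lipid tail of Gbp2, held 5 tested genes with 0 called by the same tools, 0 at an unadjusted p under 0.05 and a median of -0.00.

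Of 10 inflammasome genes downstream of Gbp proteins 1 fell, against 3.37% of all genes called lower: Aim2, the sensor of cytosolic DNA. It averaged 92.9 ± 27.0 normalized counts in WT iGB6 and 183 ± 54.8 in IgHMOG iGBGFP (log2 fold change -0.97, SE 0.24, limma adjusted p = 0.0437). Its call held in 1 of 6 fits that left out a library, that without WT iGB6 replicate 2, with adjusted p of 0.0649 to 0.188 in the other 5, and under total-count scaling its adjusted p was 0.0529. Casp4, the caspase that Gbp proteins help to activate on bacterial lipopolysaccharide, had a log2 fold change of -0.26.

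Markers of several cell types also differed between the groups, beside 3.37% of all genes called lower and 2.75% called higher. Of 6 tested markers of conventional dendritic cells 5 fell, and the markers summed to 73.5 to 305 normalized counts in WT iGB6 and 487 to 1571 in IgHMOG iGBGFP. Of 7 markers of non-classical monocytes 4 fell, with sums of 1123 to 2145 in WT iGB6 and 1801 to 4423 in IgHMOG iGBGFP. Both sums were highest in IgHMOG iGBGFP replicate 3, the library that was also highest for 8 of the 10 GTPases. Within IgHMOG iGBGFP both sums rose from replicate 1 to 2 to 3, as did the sum of the 10 GTPases. Other libraries did not keep this order. The dendritic sum of the female IgHMOG iGBGFP library, 487, was above every WT iGB6 library. Within WT iGB6 both sums were highest in replicate 2, where the sum of the 10 GTPases was lowest.

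The sum of 10 neutrophil markers was lowest in IgHMOG iGBGFP replicate 3. It ranged from 883710 to 1458470 in WT iGB6 and from 482809 to 1244220 in IgHMOG iGBGFP. Ngp alone made up much of that sum (log2 fold change 0.90, limma adjusted p = 0.266). Other neutrophil markers went the other way: Cxcr2 fell (-0.90, limma adjusted p = 0.0360), and Csf3r had -1.12 (limma adjusted p = 0.0720) and was highest in IgHMOG iGBGFP replicate 3. The 6 neutrophil precursor markers all rose, with sums of 9345 to 24679 in WT iGB6 and 1869 to 4599 in IgHMOG iGBGFP. Of 6 basophil markers 4 fell, with sums of 460 to 1683 in WT iGB6 and 1801 to 7391 in IgHMOG iGBGFP. Classical monocyte markers were mixed: 3 of 7 fell, Fn1 (log2 fold change -2.55), Ms4a4c (-0.85) and Ms4a6c (-0.84). Chil3 (1.26, limma adjusted p = 0.0540) and Ly6c2 (0.18) had log2 fold changes above 0. Natural killer cells can release interferon gamma. Their markers summed to 621 to 2468 normalized counts in WT iGB6 and 554 to 1331 in IgHMOG iGBGFP. Of 7 tested, 1 rose, Nkg7 (log2 fold change 1.36, limma adjusted p = 0.0129), and 3 had log2 fold changes below 0. Nkg7 held 534 and 416 of the sums of 842 and 621 in WT iGB6 replicates 1 and 2. In IgHMOG iGBGFP replicates 1 and 2 it held 182 and 180 of 602 and 554. The sum was highest in replicate 3 of each group. There Nkg7 held 632 of 2468 in WT iGB6 and 253 of 1331 in IgHMOG iGBGFP. T cell markers summed to 93.1 to 235 in WT iGB6 and 127 to 208 in IgHMOG iGBGFP. The T cell receptor subunit Cd3e had 0 reads in the 3 WT iGB6 libraries and averaged 2.25 ± 1.56 normalized counts in IgHMOG iGBGFP. Every marker of these cell type lists had reads in at least 1 library. The part of these cells in the GTPase values was not tested.

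The genes whose profile over the 6 libraries was most like the median profile of the 10 GTPases were H2-M3, Phf11b, Plac8, Anxa4 and Ubac2. Likeness was the root mean square distance of centred log2 values, among 5062 genes with a mean of at least 100 normalized counts and in no list. It was 0.135 for H2-M3 and for Phf11b, 0.141 for Plac8, 0.156 for Anxa4 and 0.176 for Ubac2, against a median of 0.499. The GTPases themselves were between 0.172 for Irgm1 and 0.516 for Gbp3, which spread the most. Plac8 had 2347, 2900 and 3015 normalized counts in WT iGB6 replicates 1, 2 and 3, and 2575, 4730 and 5341 in IgHMOG iGBGFP replicates 1, 2 and 3. Within IgHMOG iGBGFP it was low in the female and high in the males, which follows from how these genes were chosen.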

How the data were processed

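CD11b+ spleen cells of 6 mice were sequenced, 3 WT iGB6 and 3 IgHMOG iGBGFP. The labels give their group, replicate number, mouse number and sex. Per the labels' protocols, total RNA went through a low-input kit with PCR amplification and no molecular identifiers are described, so counting error is a lower limit. The builds GRCm38 and mm10, the aligner STAR 2.7.10b, DESeq2 2.11.40.7 and the counter featureCounts 2.0.3 stand in the submitters' processing notes, beside cutadapt 4.4. Neither strand setting nor annotation is given in the sources used.

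The deposited signal values are featureCounts reads per gene that the authors divided by 1 size factor per library. Dividing each column by its step gave whole reads for 100% of values within 0.001. The authors' deposited comparison has no header: its log2 fold change, standard error, Wald score, p-value and adjusted p-value (given for 10537 genes) were recognised from the values. The direction, WT iGB6 over IgHMOG iGBGFP, was read from the counts.

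Symbols came from GENCODE M21, which matched 42462 of 43432 genes. The main test was limma 3.58.1 (R 4.3.3, trended eBayes) on log2(normalized count + 1), for genes with a mean of at least 10, fitting group plus sex. Its p-values were two-sided and adjusted by Benjamini and Hochberg's method, with calls under 0.05. Fold changes on this scale understate those of low genes. edgeR 4.0.16 and DESeq2 1.42.0 were run on the recovered reads, and the limma step was tested on simulated data. Promoter windows came from RefSeq (GRCm38.p6), whose start can differ from the outermost GENCODE start.

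The 10 genes and all lists were chosen with earlier results of these data known. All 10 and their relatives are named. From the other lists the called genes are named, at most 4 by smallest p, otherwise the 2 most abundant, with signalling genes of interferon gamma added. Genes called by DESeq2 alone, Socs1, Cd3e, Ngp, Cxcr2, Csf3r, Nkg7 and the classical monocyte markers were named after their values were seen.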

Additional observations from a re-analysis of the deposited data

How the results depend on the processing

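Of 179 values of the 10 GTPases under 18 alternatives, 156 kept direction and side of the threshold, 14 newly passed it and 9 changed sign. The signs changed for genes near 0. Gbp7 was -0.11 under total-count scaling and -0.038 with males alone, and -0.083 to 0.36 when 1 library was left out. The leave-one-out ranges were -0.51 to 0.14 for Igtp, -0.32 to 0.22 for Gbp8 and -0.69 to 0.036 for Iigp1. Without a replicate 1 the sex term takes up the other one, so these fits give the same fold changes as males alone, with slightly different p-values. Gbp4 has no value at a mean of at least 50.

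The count of the 10 called lower was 0, and 4 with no filter (Gbp2, Gbp3, Gbp9 and Irgm1), 3 in the authors' deposited table, 2 in DESeq2, 1 in edgeR, 1 with males alone and 0 to 1 when a library was left out. Genes called higher numbered 273, against 422 in DESeq2, 410 in the authors' deposited table, 459 with no filter, 82 under total-count scaling, 62 with males alone, 6 with no sex term and 3 to 410 when a library was left out. Genes called lower numbered 334, against 529 in DESeq2, 620 with no filter, 72 with males alone, 4 with no sex term and 1 to 673 when a library was left out. The share of calls that were higher was 45.0%, and 18.9% under total-count scaling. The cause was not tested.

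Counts called lower in the lists moved as follows. With no filter they were 3 for other family GTPases, 1 for interferon ligands, 3 for other interferon gamma targets, 1 for the ATG8 system and 3 for inflammasome genes. With no sex term they were 0 in each list with a call. With males alone they were 0 for Mx genes, inhibitors and inflammasome genes, 1 for interferon gamma signalling and 2 for the type I response. Total-count scaling gave 1 for the type I receptor and 0 for inflammasome genes. DESeq2 gave 1 for other family GTPases, 2 for other interferon gamma targets and 1 for the ATG8 system; the authors' deposited table gave 1 for each of these 3. When a library was left out, the ranges were 0 to 1 for other family GTPases, Mx genes and inhibitors, 0 to 2 for the ATG8 system, 0 to 3 for inflammasome genes, 0 to 4 for interferon gamma signalling, 0 to 5 for other interferon gamma targets and 0 to 6 for the type I response.

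The groups share replicate numbers, and the labels do not say whether the numbers pair the libraries. Sample titles also give mouse numbers, which lie closer together within a replicate number than between replicate numbers. Deviations from the group means correlated at 0.48, 0.35 and 0.04 for replicates 1, 2 and 3. WT iGB6 replicates 1 and 2 correlated best with their own number, and WT iGB6 replicate 3 did not. With 3 libraries per group, and sex coinciding with replicate 1, these correlations cannot decide whether the libraries are paired. The replicate block in place of sex gave 435 genes higher, 566 lower and 1 of the 10 GTPases lower (Gbp9, adjusted p = 0.0439). It gave 1 for other family GTPases, 2 for other interferon gamma targets, 1 for the ATG8 system and 3 for inflammasome genes. With 3 mice per group, even the narrow 95% interval of Gbp9 ran from -1.19 to -0.30.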
